A study of Homo sapiens with 4 samples.

Results

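RNA polymerase III makes a small set of short, abundant noncoding RNAs, and 7 of them were followed here in a cell line from head and neck cancer after knockdown of the chromatin reader YEATS2. The members were RN7SL1, RN7SL2, RN7SL3, BCYRN1, RN7SK, RMRP and RPPH1, matched by the gene symbol that the count files give. They corresponded to 8 of the 60623 gene rows, since RMRP is listed under both ENSG00000269900 and ENSG00000277027. The set was chosen by measured values of this same comparison, so the levels of the members are given as a description and without a test. Of the 7 members, 3 had any count (RN7SL1, RN7SL3 and BCYRN1) and 4 were at 0 in every library (RN7SL2, RN7SK, RMRP and RPPH1).

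BICR10, the cell line, was transduced with lentivirus carrying either a control hairpin (shControl) or a hairpin against YEATS2 (shYEATS2), and transduced cells of both groups were selected with puromycin. Each group had 2 libraries, made with a stranded kit after enrichment of mRNA and sequenced as pairs of 150 bases. The study had more than 1 YEATS2 hairpin, and which of them each shYEATS2 library carries is not given in the sources used here. The study describes its replicates in general as biological, but neither the labels nor the RNA-seq methods say whether the 2 libraries of a group came from separate cultures, so p-values measure the spread between these samples, which may be technical. The vectors of this hairpin library drive the hairpin from the U6 promoter, itself a polymerase III promoter, in control and knockdown cells alike.

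RNA polymerase III starts from unlike promoters. The 7SL genes carry promoter elements inside the transcribed part as well as upstream, whereas the 7SK, RMRP and RNase P RNA genes use upstream elements bound by the SNAPc complex. RN7SL1, RN7SL2 and RN7SL3 encode 7SL RNA, the scaffold of the signal recognition particle that docks ribosomes at the endoplasmic reticulum, and BCYRN1 encodes BC200, an Alu-related RNA best known from neurons and reported in many cancers. 7SK RNA holds the elongation factor P-TEFb inactive, and RMRP and RPPH1 are the RNA parts of RNase MRP and RNase P, which process rRNA and tRNA precursors. None of these RNAs ends in the poly(A) tail on which mRNA enrichment relies, although BC200 has an A-rich stretch inside it. How each RNA passed that step was not measured, so the counts need not follow the level in the cell.

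The copies of 7SL differ at few bases and yet behaved differently in the counts. On GRCh38, GENCODE 44 places RN7SL1 at chr14:49586580-49586878 on the plus strand, and RN7SL2 (chr14:49862550-49862849) and RN7SL3 (chr14:49853616-49853914) on the minus strand. BCYRN1, of 200 bases, lies at chr2:47335315-47335514 on the plus strand. RN7SL1 and RN7SL3, both of 299 bases, were identical at 292 positions (97.7%). The 7 substitutions were spread along the RNA in such a way that RN7SL3 shared 0 of its 150 windows of 150 bases, the length of one read, with RN7SL1. RN7SL2 differed from RN7SL1 by 4 substitutions and 1 additional base, and they shared 56 windows. A single read over one of those windows cannot be told apart between RN7SL1 and RN7SL2. A full read of 150 bases without error, anywhere in RN7SL3, carries at least 1 base that sets it apart from both. How often clipped reads or reads with an error were assigned to the wrong 7SL copy was not measured.

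Across the assembled chromosomes of GRCh38, all 150 windows of RN7SL3 were found in 1 place. In RN7SL1 only 51 of 150 windows were found in 1 place, and the other 99 had an exact copy in RN7SL2 or in the pseudogene RN7SL5P on chromosome 9, with which it shared a run of 209 bases. BCYRN1 had 14 of 51 windows in 1 place, and the other 37 were also found on chromosome X, where no gene of GENCODE 44 lies on the matching strand. Every 150-base window of RN7SK (179), RMRP (115) and RPPH1 (184) was found in 1 place. At 30 bases, the windows found in 1 place were 0 of 270 in RN7SL1, 59 of 270 in RN7SL3 and 3 of 171 in BCYRN1. They were 28 of 299 in RN7SK, 233 of 235 in RMRP and 304 of 304 in RPPH1. Near copies with a mismatch were not searched, and the part of repeated sequence in the zeros was not tested. Reads that align to more than 1 place were set aside by the counting and made up 3.25% to 3.53% of the read pairs tallied in each library. Their share from the members is not kept in the files.

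**Figure D1:**
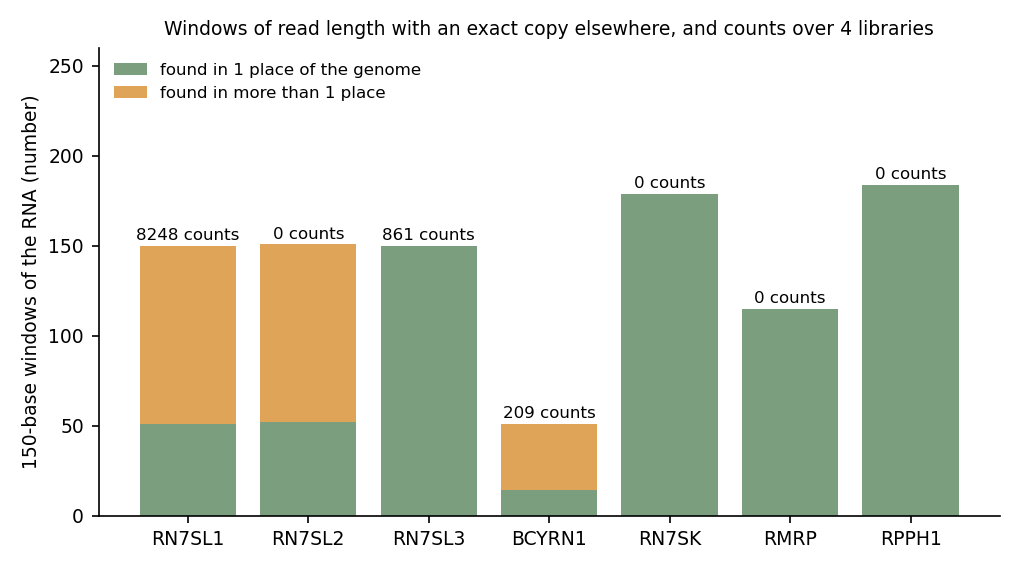
Number of 150-base windows in each RNA (y axis), split into windows found in 1 place of GRCh38 and windows with an exact copy elsewhere. The total counts over the 4 libraries are written above each bar. RN7SL1 has 8248 counts and 99 of its 150 windows are repeated. RN7SL2 has 0 counts and 99 of its 151 windows are repeated. RN7SK, RMRP and RPPH1 have 0 counts and no repeated window of this length.

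The libraries held 47297970 and 39824898 counts on genes in shControl and 24072396 and 11334133 in shYEATS2, so depth cannot be told apart from the condition and differed by up to 4.17-fold. YEATS2 itself was at 66.1 and 66.7 CPM in shControl and at 29.2 and 29.1 in shYEATS2, which is 43.95% of control (log2 fold change -1.19, SE 0.08, adjusted p = 3.55e-21, quasi-likelihood test of edgeR, Benjamini-Hochberg adjusted). CPM here stands for counts-per-million, relative to the total on genes, after TMM scaling, a correction for differences in RNA composition. Of 17058 genes tested, 22.6% were called higher and 23.6% lower after the knockdown, taking an adjusted p under 0.05. Keratin and other epithelial markers were low for a carcinoma line: the 8 markers summed to 392 to 398 CPM in shControl and 191 to 206 in shYEATS2, and TP63 had at most 3 counts in any library. Most of that sum was KRT8 and KRT18, which fell (log2 fold changes -1.16 and -0.55, adjusted p = 1.25e-25 and 1.82e-10, edgeR). Of the 6 markers tested, 5 were called lower. KRT5 fell most, from 15.7 to 1.19 CPM (log2 fold change -3.78, adjusted p = 5.26e-28, edgeR). CDH1 alone was called higher, from 0.335 to 2.48 CPM (log2 fold change 2.91, adjusted p = 4.61e-10, edgeR). The 5 fibroblast markers summed to 6169 to 6244 CPM in shControl and 1985 to 2107 in shYEATS2, of which COL1A1 was the largest. The 5 leukocyte and endothelial markers summed to at most 2.38 CPM in any library, with CD3E and CD68 at 0. These libraries thus went against an epithelial identity by their markers, and the part of that in the results below was not tested.

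RN7SL3 and BCYRN1 were higher in both shYEATS2 libraries than in either shControl library, and RN7SL1, the most abundant member, was not. These 2 of the 7 members are also called higher by the rule that calls 22.6% of all genes higher, and none is called lower, but this comparison is the one by which the members were selected and nothing is read from the count. In bulk RNA, a change in how many cells contain an RNA and a change in its amount per cell cannot be told apart.

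RN7SL1 (ENSG00000276168) had 3484 and 1979 counts in shControl, against 2121 and 664 in shYEATS2. This corresponded to 76.8 and 52.4 CPM in shControl and to 83.7 and 56.3 CPM in shYEATS2. The groups overlapped: library 1 was the higher library in each group, by 1.47-fold in shControl and 1.49-fold in shYEATS2. The means were 64.6 ± 17.3 and 70.0 ± 19.4 CPM (SD, n = 2 each), which gives a log2 fold change of 0.15 (SE 0.37). Between single libraries the log2 difference ran from -0.45 to 0.68. No difference could be told from the spread between libraries at this n. Without shControl 2 the log2 fold change was -0.12 and without shYEATS2 1 it was -0.22, so that its sign rested on single libraries. RN7SL1 was nonetheless among the abundant features of these libraries, above 80.5% of the tested genes in shControl and 82.0% in shYEATS2.

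RN7SL3 (ENSG00000278771), the other copy of 7SL with counts, had 213 and 130 counts in shControl and 386 and 132 in shYEATS2. Scaled to depth, these were 4.70 and 3.44 CPM in shControl and 15.2 and 11.2 CPM in shYEATS2. Both knockdown libraries were thus above both controls, and library 1 was again the higher one of each group, by 1.37-fold and 1.36-fold. The mean went from 4.07 ± 0.888 to 13.2 ± 2.85 CPM (SD, n = 2 each), a 3.31-fold difference (log2 1.73, SE 0.15). The smallest difference between any shYEATS2 and any shControl library was 1.25 on the log2 scale and the largest 2.15. Of the tested genes, 2.49% had a larger rise.

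BCYRN1 (ENSG00000236824) was the scarcest of the counted members, with 41 and 37 counts in shControl and 90 and 41 in shYEATS2. At the depth of each library this was 0.904 and 0.979 CPM in shControl against 3.55 and 3.48 CPM in shYEATS2. The libraries within a group lay close together, within 1.08-fold in shControl and 1.02-fold in shYEATS2, and the groups were far apart. The mean went from 0.942 ± 0.0532 to 3.52 ± 0.0522 CPM (SD, n = 2 each), a 3.74-fold difference (log2 1.90, SE 0.27). Counting error is wider than this agreement between libraries. The share of BCYRN1 in shControl 1 was 0.867 CPM (before TMM scaling) with a 95% Wilson interval of 0.639 to 1.18, and that in shYEATS2 2 was 3.62 with an interval of 2.67 to 4.91, which covers counting error only. Of the tested genes, 1.96% had a larger rise.

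**Figure D2:**
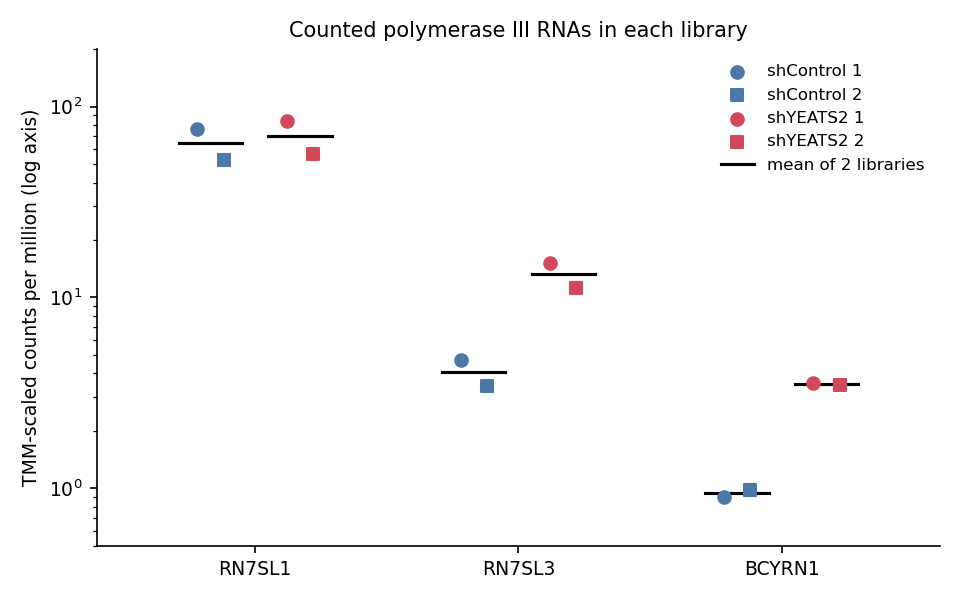
Level of the 3 counted RNAs in each library, in TMM-scaled CPM on a log axis, with circles for library 1, squares for library 2 and a bar for the mean of the 2 libraries. RN7SL1 overlaps between shControl (52.4 and 76.8) and shYEATS2 (56.3 and 83.7), whereas RN7SL3 and BCYRN1 are higher in both shYEATS2 libraries.

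Per kilobase of transcript, the order of the mean levels was RN7SL1, RN7SL3, BCYRN1 in both groups. RN7SL1 was at 216 CPM per kilobase in shControl and 234 in shYEATS2. RN7SL3 was at 13.6 and 44.2 and BCYRN1 at 4.71 and 17.6 CPM per kilobase, in the same order of groups. Neighbours in this order did not overlap in any library. The summed level of all members was 82.4 and 56.8 CPM in shControl and 103 and 71.0 CPM in shYEATS2, and the groups overlapped. RN7SL1 made up 93.2% and 92.2% of the members' counts in shControl and 81.7% and 79.3% in shYEATS2. Without RN7SL1, the log2 difference of the summed level was 1.74 in place of 0.32.

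Ratios between members inside one library do not depend on depth or scaling. For every 100 counts of RN7SL1 there were 6.11 and 6.57 counts of RN7SL3 in shControl, against 18.2 and 19.9 in shYEATS2. Library 1 and library 2 of a group, which differed by up to 1.49-fold in the level of either RNA, were thus close together in their ratio. The log2 ratio of RN7SL3 to RN7SL1, which was not planned in advance, was higher by 1.59 in shYEATS2. It was higher by 1.52 to 1.65 when any one library was left out. BCYRN1 relative to RN7SL1 also differed without overlap, with 1.18 and 1.87 counts per 100 in shControl and 4.24 and 6.18 in shYEATS2. BCYRN1 relative to RN7SL3 overlapped between the groups, at 19.2 and 28.5 per 100 in shControl and 23.3 and 31.1 in shYEATS2. The counts of RN7SL3 and BCYRN1 were thus not separated by group when set against each other, while each was when set against RN7SL1.

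**Figure D3:**
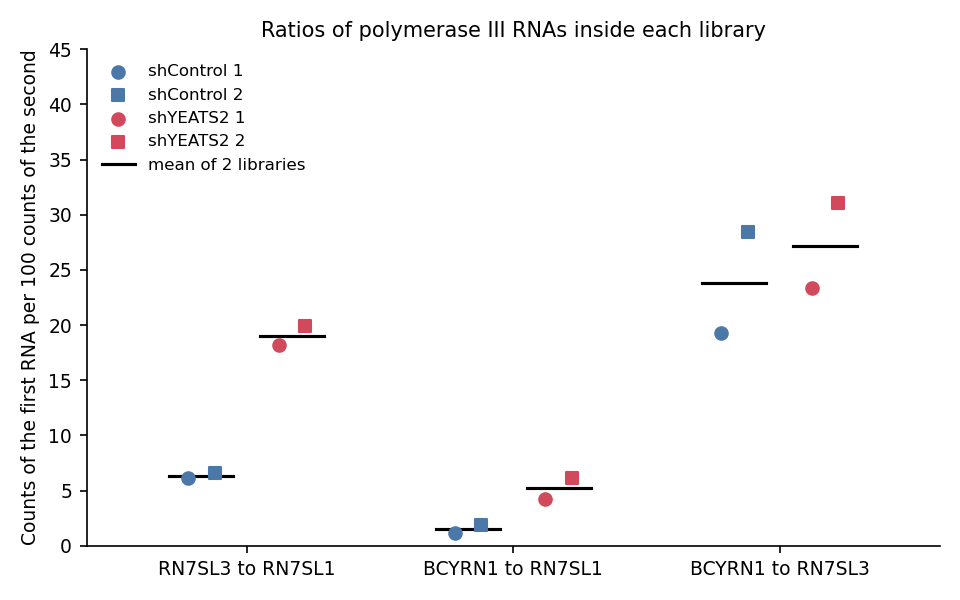
Counts of one member per 100 counts of another in the same library, with circles for library 1, squares for library 2 and a bar for the mean of the 2 libraries. RN7SL3 to RN7SL1 goes from 6.11 and 6.57 in shControl to 18.2 and 19.9 in shYEATS2, whereas BCYRN1 to RN7SL3 overlaps between the groups.

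The 4 members at 0 were RN7SL2 (ENSG00000274012), RN7SK (ENSG00000283293), RMRP (both of its rows) and RPPH1 (ENSG00000277209). A count of 0 allows up to 3 counts, that is 0.0634 CPM in the deepest library and 0.265 CPM in the shallowest, and no fold change can be given. In GRCh38, RN7SK lies at chr6:52995621-52995948 on the plus strand and has 328 bases. RMRP, of 264 bases, lies at chr9:35657754-35658017, and RPPH1, of 333 bases, at chr14:20343075-20343407, both on the minus strand. RN7SL2, RN7SK and RPPH1 each share their place with a further row of the counts. RMRP shares its symbol with a further row, and whether it also shares its place with that row was not checked. All 300 bases of RN7SL2 lie in exons of the lncRNA AL627171.2 on the same strand, which had 7 and 5 counts in shControl and 4 and 4 in shYEATS2. All 328 bases of RN7SK lie in a row named 7SK, also at 0, and all 333 bases of RPPH1 lie in exons of the lncRNA AL355075.4, which had at most 2 counts in a library. The second RMRP row, ENSG00000269900, is not part of GENCODE 44, so its position was not checked. HTSeq, the counting tool named by the study, by default assigns a read over the exons of more than 1 gene to none of them, and such ambiguous reads were 4.31% to 4.61% of the read pairs tallied per library. Whether this default was used is not given in the sources used here, and its part in the zeros was not tested.

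Among the genes of GENCODE 44, the counted members lacked such a partner. RN7SL1 lies inside the gene RPS29 on the opposite strand with 0 bases in its exons. BCYRN1 lies inside the lncRNA EPCAM-DT on the opposite strand with 0 bases in its exons. No other gene of GENCODE 44 overlaps RN7SL3. Of the 60623 gene rows, 60295 have an ID in GENCODE 44, and the positions of the rest were not checked. Which strand setting was used in the counting is not given in the sources used here, so reads from an intron of RPS29 could not be told apart from RN7SL1 on that ground. EPCAM-DT had 0 counts in every library.

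None of the protein-coding genes nearest to the counted members was called higher. RPS29, a ribosomal protein gene around RN7SL1, was at 191 ± 41.6 CPM in shControl and 151 ± 4.08 in shYEATS2 (SD, n = 2 each; log2 fold change -0.35, adjusted p = 0.299, edgeR's quasi-likelihood test). It was called lower without shControl 2 (log2 fold change -0.56, adjusted p = 9.73e-09, edgeR), with the replicate number as a block (adjusted p = 2.56e-06, edgeR) and without the filter on low counts (adjusted p = 5.06e-07, edgeR). NEMF, a factor of ribosome quality control, lies 795 bases from RN7SL3 on the same strand and fell from 36.2 ± 1.87 to 29.8 ± 1.17 CPM (log2 fold change -0.27, adjusted p = 0.00612, edgeR), a call lost without shControl 2, with library totals alone and after thinning (adjusted p = 0.139, 0.18 and 0.0506, edgeR). EPCAM, an epithelial adhesion molecule 9644 bases from BCYRN1 on the same strand, was near the limit of counting with 56 and 30 counts in shControl and 12 and 6 in shYEATS2 (log2 fold change -1.07, adjusted p = 0.0431, edgeR). That call was lost when any one of shControl 1, shYEATS2 1 or shYEATS2 2 was left out (adjusted p = 0.406, 0.203 and 0.0691, edgeR). It was also lost with library totals alone, upper quartile scaling, no filter on low counts and DESeq2 (adjusted p = 0.0849, 0.0548, 0.0571 and 0.229). Of the genes next to the members at 0, GSTA4 beside RN7SK fell (log2 fold change -0.46, adjusted p = 2.91e-06, edgeR). CCDC107 beside RMRP had a log2 fold change of -0.19 (adjusted p = 0.0508, edgeR). It was called lower under 6 alternatives: without shYEATS2 1, with no filter, with at least 10 counts in every library, with the likelihood ratio test, with the replicate block and after thinning (adjusted p = 0.0157, 0.0223, 0.0428, 0.0477, 0.039 and 0.0249, edgeR). PARP2 beside RPPH1 had a log2 fold change of -0.0002 (adjusted p = 0.999, edgeR).

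Other rows named after these RNAs are mostly pseudogene copies, and their counts did not follow RN7SL3. The 677 further rows whose symbol begins with RN7SL, of which 173 had any count, together held 13.7 and 12.2 CPM (before TMM scaling) in shControl and 10.1 and 11.5 in shYEATS2. The 169 rows named Metazoa_SRP held 3.32 and 2.59 CPM in shControl and 2.04 and 2.65 in shYEATS2, and the 293 rows beginning with RN7SK held 2.01 and 2.24 in shControl and 1.95 and 2.47 in shYEATS2. For none of these families were both shYEATS2 libraries above both shControl libraries. The further RN7SL rows were lower in both shYEATS2 libraries than in either shControl library, before and after TMM scaling. The RN7SK rows overlapped between the groups on both scales. The Metazoa_SRP rows overlapped before TMM scaling only, and after it they were lower in both shYEATS2 libraries, so their separation depended on the scaling. RN7SL689P had the most counts, 123 and 79 in shControl and 25 and 11 in shYEATS2, and fell (log2 fold change -1.31, SE 0.30, adjusted p = 2.32e-04, edgeR's quasi-likelihood test). RN7SL81P also fell, from 26 and 36 counts to 5 and 4 (log2 fold change -1.60, SE 0.57, adjusted p = 0.016, edgeR), a call lost without shControl 2, without shYEATS2 1 and with DESeq2 (adjusted p = 0.266, 0.24 and 0.139). RN7SL4P, which shares a run of 192 bases with RN7SL2, had 145 and 34 counts in shControl and 43 and 13 in shYEATS2. Its groups overlapped (log2 fold change -0.50, SE 0.89, adjusted p = 0.716, edgeR), and without shControl 2 it was called lower (log2 fold change -1.11, adjusted p = 9.9e-04, edgeR). Reads of copies this similar can be assigned to the wrong row, so these values are uncertain.

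Further polymerase III transcripts were nearly absent from the counts. Of 30 rows for U6, U6atac, Y, vault and 5S RNAs, 23 were at 0 in every library and none reached a mean of 1 CPM. Together they held 1.31 and 0.778 CPM (before TMM scaling) in shControl and 0.831 and 1.85 in shYEATS2, with overlap between the groups. RNU6-8, a U6 copy, held most of these, with 48 and 22 counts in shControl and 13 and 15 in shYEATS2. Small RNAs of polymerase II that also lack a poly(A) tail were as sparse, with 19 of 27 rows at 0 and sums of 0.951 and 0.301 CPM in shControl and 0.582 and 1.06 in shYEATS2. These sums also overlapped between the groups.

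The protein genes of the polymerase III pathway and of the particles that contain its RNAs went both ways. Of 65 such genes, all tested, 15 (23.1%) were called higher and 16 (24.6%) lower, beside 22.6% and 23.6% of all 17058 genes, and their median log2 fold change was 0.03 beside -0.01 over all genes. The share of the list called in either direction was therefore near that of all genes. The split depended on the scaling: with library totals alone, which shifts the median of all genes to 0.13, 27 of the 65 were called higher and 10 lower, and over all genes 5441 were called higher and 2567 lower in place of 3857 and 4019. Without shControl 1, 6 of the 65 were called higher and 13 lower, and calls were fewer over all genes too, with 2604 of 17155 higher and 3062 lower.

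**Figure D4:**
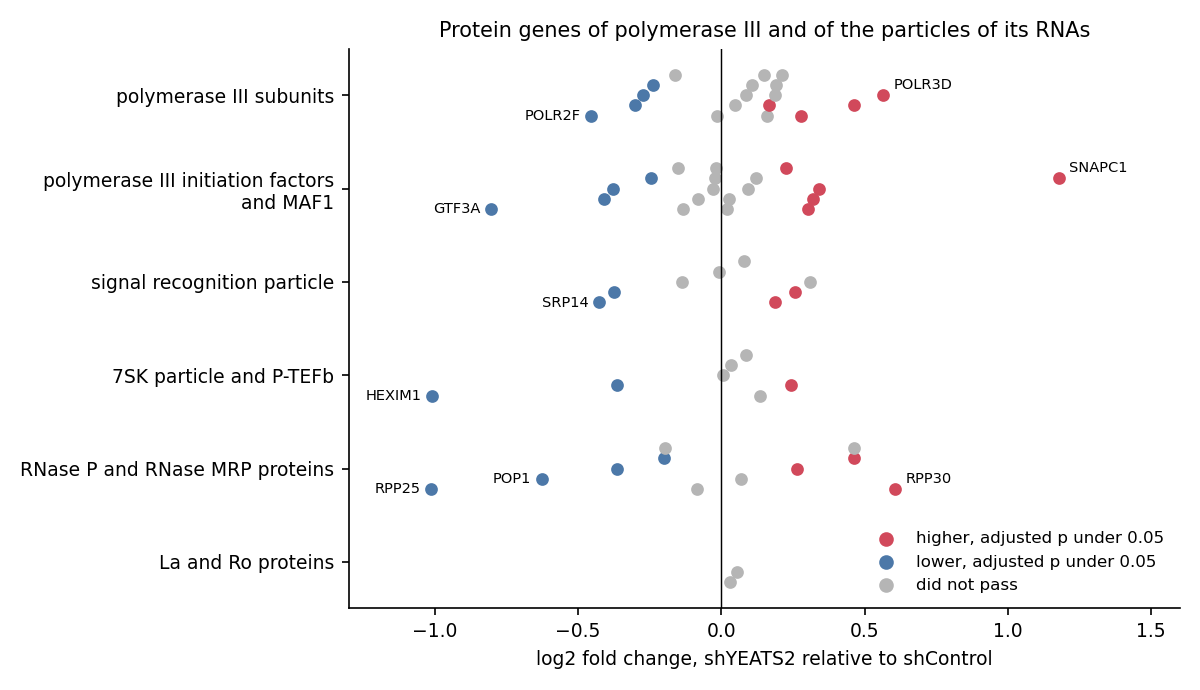
Log2 fold change of shYEATS2 relative to shControl for the 65 protein genes, 1 point per gene in 6 lists, coloured by whether the gene was called at an adjusted p under 0.05 in edgeR's quasi-likelihood test. The points lie on both sides of 0 in each list but the La and Ro proteins, with SNAPC1 (1.18) farthest to the right and RPP25 and HEXIM1 (both -1.01) farthest to the left.

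Among the 18 subunits of polymerase III, 4 were called higher, 4 lower and 10 neither, with a median log2 fold change of 0.13. POLR3D, a subunit particular to polymerase III, rose from 37.5 ± 1.61 to 55.5 ± 0.949 CPM (SD, n = 2 each; log2 fold change 0.57, SE 0.08, adjusted p = 3.32e-09, edgeR's quasi-likelihood test). CRCP, the gene of the subunit RPC9, rose by 0.46 on the log2 scale (adjusted p = 6.71e-06, edgeR). POLR2F, a subunit shared with the other nuclear polymerases, fell by 0.46 (adjusted p = 3.66e-06, edgeR). POLR3B, which forms the catalytic core together with POLR3A, fell by 0.30 (adjusted p = 0.0121, edgeR). That call was lost with library totals alone (adjusted p = 0.181), with DESeq2 (0.0917), after thinning all libraries to the depth of the smallest (0.222) and without shControl 2 (0.221). POLR3A itself was at 45.4 ± 0.433 and 46.4 ± 4.49 CPM and did not pass (log2 fold change 0.05, SE 0.08, adjusted p = 0.648, edgeR). The alternative subunits POLR3G, typical of stem and tumour cells, and POLR3GL did not pass either, with log2 fold changes of 0.16 (adjusted p = 0.195, edgeR) and -0.01 (adjusted p = 0.935, edgeR). POLR3G was called higher without shYEATS2 1, with library totals alone and after thinning (adjusted p = 0.0117, 0.0188 and 0.0119, edgeR).

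Of 19 genes of initiation factors, MAF1 included, 5 were called higher and 4 lower, with a median log2 fold change of -0.02. SNAPC1, a subunit of the SNAPc complex that binds upstream promoters such as those of 7SK and U6, had 8.31 and 7.78 CPM in shControl and 17.0 and 20.02 CPM in shYEATS2. It rose 2.26-fold (log2 fold change 1.18, SE 0.12, adjusted p = 1.36e-13, edgeR's quasi-likelihood test). GTF3A, which encodes TFIIIA, the factor needed for 5S rRNA genes, had 112 and 117 CPM in shControl and 61.9 and 70.8 CPM in shYEATS2. It fell by 0.80 on the log2 scale (SE 0.07, adjusted p = 6.14e-16, edgeR). GTF3C3, a subunit of TFIIIC, which binds the internal promoter elements, fell by 0.41 (adjusted p = 4.03e-06, edgeR) and POU2F1, which binds the octamer of upstream promoters, fell by 0.38 (adjusted p = 1.08e-04, edgeR). BRF1, the TFIIIB subunit used at internal promoters, did not pass (log2 fold change -0.15, adjusted p = 0.231, edgeR). BRF2, its counterpart at upstream promoters, rose by 0.34 (adjusted p = 0.00434, edgeR), a call lost without shControl 1 (adjusted p = 0.119) or shYEATS2 1 (0.107). MAF1, the repressor of polymerase III, rose from 52.6 ± 0.332 to 61.2 ± 2.86 CPM (log2 fold change 0.22, adjusted p = 0.00769, edgeR). The MAF1 call was lost without shControl 1, shControl 2 or shYEATS2 1 and with no filter on low counts (adjusted p = 0.131, 0.103, 0.0816 and 0.0696, edgeR).

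Proteins that bind the members were next. Of 8 genes of the signal recognition particle and its receptor, 2 were called higher and 2 lower, with a median log2 fold change of 0.04. SRP9 and SRP14 form the dimer that binds the Alu domain of 7SL RNA and also binds BC200, and their transcripts went in opposite directions. SRP14 had 261 and 263 CPM in shControl and 196 and 194 CPM in shYEATS2, and fell by 0.43 on the log2 scale (SE 0.06, adjusted p = 1.04e-08, edgeR's quasi-likelihood test). SRP9 had 191 and 201 CPM in shControl and 220.0 and 227 CPM in shYEATS2, and rose by 0.19 on the log2 scale (SE 0.06, adjusted p = 0.00797, edgeR). The SRP9 call was lost without shControl 1 (adjusted p = 0.222, edgeR) and without the filter on low counts (adjusted p = 0.109, edgeR). SRPRB, the membrane anchor of the receptor, fell by 0.37 (adjusted p = 1.26e-06, edgeR). SRP54, which binds signal peptides, rose by 0.26 (adjusted p = 0.00164, edgeR; 0.127 without shControl 1).

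In the 7SK particle and P-TEFb, 1 of 7 genes was called higher and 2 lower, with a median of 0.03. HEXIM1, the protein that keeps P-TEFb inactive when bound to 7SK, had 54.2 and 49.8 CPM in shControl and 27.3 and 23.8 CPM in shYEATS2. It was at 49.7% of control (log2 fold change -1.01, SE 0.08, adjusted p = 1.42e-16, edgeR's quasi-likelihood test). LARP7, which protects the 3′ end of 7SK, fell by 0.37 (adjusted p = 1.23e-04, edgeR). CCNT1, the cyclin of P-TEFb, rose by 0.24 (adjusted p = 0.00599, edgeR; 0.271 without shControl 1). MEPCE, CDK9, CCNT2 and HEXIM2 did not pass. The 7SK RNA itself was at 0 in these counts, so it could not be set beside its proteins.

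Of the 11 proteins of RNase P and RNase MRP, 3 were called higher and 4 lower, with a median of -0.08. POP1, the largest of them, fell from 51.7 ± 3.87 to 33.2 ± 1.78 CPM (SD, n = 2 each; log2 fold change -0.63, SE 0.08, adjusted p = 8.68e-10, edgeR's quasi-likelihood test). RPP30 rose from 15.0 ± 0.287 to 22.8 ± 1.01 CPM (log2 fold change 0.61, adjusted p = 4.78e-07, edgeR) and RPP38 by 0.46 on the log2 scale (adjusted p = 3.65e-04, edgeR). RPP25L fell by 0.37 (adjusted p = 0.00805, edgeR), a call lost with library totals alone, with DESeq2, after thinning and without shControl 1 (adjusted p = 0.113, 0.0926, 0.0901 and 0.263). Named after its values were seen, its paralogue RPP25 fell by 1.01 on the log2 scale, from 10.4 to 5.08 CPM (adjusted p = 1.42e-08, edgeR). SSB, the La protein that binds the 3′ end of new polymerase III transcripts, did not pass (log2 fold change 0.06, SE 0.06, adjusted p = 0.507, edgeR), nor did RO60, the Ro protein that binds Y RNAs. SSB was called higher without shYEATS2 1 (adjusted p = 0.0126, edgeR) and with library totals alone (adjusted p = 0.0179, edgeR).

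The genes whose pattern over the 4 libraries came closest to that of each counted member were taken from those with a mean of at least 10 CPM, by the root mean square difference of their centred log2 CPM. For BCYRN1 these were SERPINE2 (0.0302), PHLDA1 (0.0306) and INHBA (0.0509), of 9365 genes compared. For RN7SL3 they were SLC6A9 (0.161), JUP (0.176) and SLCO2B1 (0.188). For RN7SL1 they were NAT14 (0.123), MINCR (0.127), MAP11 (0.141), RABGGTA (0.149) and SRXN1 (0.152), of 9364 genes. With 4 libraries in 2 groups, such a likeness is carried by few values. The log2 CPM used here had a prior count of 2, which shrinks differences in rows of few counts such as BCYRN1 (37 to 90 counts). Counting error was not part of these distances.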

How the data were processed

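Total RNA of the 4 BICR10 libraries was enriched for mRNA, sequenced in pairs, aligned by the authors to GRCh38 with STAR and counted per gene with HTSeq. The deposited values are raw counts per gene and were not normalized. The annotation release, strand setting and overlap mode are not given in the sources used here. Summary rows (no feature, ambiguous, not unique) were left out of totals and tests; reads on no feature were 7.64% to 8.57% of those tallied.

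The members and lists were chosen with earlier results of these data known. Genes were kept by filterByExpr, scaled by TMM and tested with edgeR 4.0.16 (quasi-likelihood, robust; R 4.3.3), with Benjamini-Hochberg adjustment over all 17058 genes. A standard error is the log2 fold change divided by the square root of its F. With 2 libraries against 2, a two-sided exact permutation test cannot go below p = 0.333. DESeq2 1.42.0, other scalings and filters, thinning and leave-one-out fits were alternatives. In leave-one-out fits the lone library of a group is assumed to vary like the other group. The labels do not say that a library number marks a shared culture or day, so the numbers were not taken as pairs. Across genes, same-numbered libraries did not deviate together (r = -0.018). For RN7SL1 and RN7SL3, however, library 1 was the higher one in both groups.

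In each list, the text names the 4 called genes of largest log2 fold change whose mean reached 10 CPM and whose groups did not overlap, plus genes fixed by name, members, related rows, nearest and overlapping genes, and the closest patterns. Positions and lengths come from GENCODE 44, and the transcript sequences compared are not reported here. Windows were searched as exact matches on both strands. 7SL copies were aligned globally with Biopython. The promoters were not analysed here.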

Additional observations from a re-analysis of the deposited data

How the results depend on the processing

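BCYRN1 rests on 37 to 90 counts in a library. The log2 fold change of RN7SL3 ran from 1.44 to 1.97 when single libraries were left out, that of BCYRN1 from 1.84 to 1.95 and that of RN7SL1 from -0.22 to 0.44. BCYRN1 was 2.04 with library totals alone. The summed member level was 1.74 without RN7SL1 and ran from 0.03 to 0.61 without single libraries. With library totals alone, 27 machinery and partner genes were called higher and 10 lower, and 2567 of all genes were called lower. Without single libraries, 6 to 15 of the machinery and partner genes were called higher and 13 to 19 lower, and over all genes 2604 to 3677 were higher and 3062 to 4051 lower. With the replicate number as a block, 3870 genes were called higher and 4142 lower, RN7SL1 was 0.12, RN7SL3 1.70 and BCYRN1 1.90. DESeq2 called 2820 higher and 2949 lower. Of 464 values of 36 single genes under these alternatives, 31 lost a call, 15 gained one and 15 changed sign, the last all of genes that had not passed. POLR3GL became 0.12 with library totals alone and 0.0291 after thinning, and ran from -0.12 to 0.10 without single libraries. PARP2 became 0.006 with DESeq2 size factors, 0.13 with totals alone, 0.0114 with upper quartile scaling, 0.0107 with DESeq2 and 0.003 with the block. POLR3A became -0.0004 without a filter. Without single libraries PARP2 ran from -0.068 to 0.0704, POLR3A from -0.0831 to 0.12, SSB from -0.0653 to 0.16 and RN7SL4P from -1.11 to 0.71. The cause was not tested.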
